A study of Mus musculus with 31 samples.

Results

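The axon guidance ligands and receptors were taken as every probe set whose gene symbol in the array annotation named a semaphorin of classes 3 to 7, a plexin, a neuropilin, a Slit, a Robo, a netrin or netrin-G protein, Dcc, an Unc5 receptor, an ephrin or an Eph receptor. The rule found 158 probe sets of 71 genes among the 45037 mouse probe sets and 18193 named genes of the array. Of these, 131 probe sets of 66 genes passed the filter on low signals (above the median of the array on at least 3 arrays), against 26877 probe sets and 12844 genes over the whole array. The families on the array were 7 class 3 semaphorins, 13 semaphorins of classes 4 to 7, 9 plexins, 2 neuropilins, 3 Slits, 4 Robos, 4 netrins, 2 netrin-G proteins, 5 Dcc and Unc5 receptors, 5 ephrin-A ligands, 3 ephrin-B ligands, 9 EphA receptors and 4 EphB receptors. The pattern also took in Plxna4os1, a noncoding transcript antisense to Plxna4. Probe sets listed for several genes were left out. Ephb2 had no probe set listed for it alone and was not analysed, so the EphB receptors are incomplete.

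Guidance cues are secreted or membrane-bound proteins that attract or repel the growth cone at the tip of an axon. Semaphorins act through plexins, with neuropilins as co-receptors for most class 3 members, Slits act through Robos, netrins attract through Dcc and repel through Unc5 receptors, and ephrins act through the Eph receptor tyrosine kinases. In the hippocampus these families are known for laying out the mossy fiber, entorhinal and commissural paths early in life and for shaping spines and synapses later.

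The hippocampus of 1 male C57BL/6 mouse was measured on each of 31 arrays. The Glud1 transgenic (Tg) mice carry a transgene for the mitochondrial enzyme glutamate dehydrogenase 1 that is expressed only in neurons of the central nervous system, and the wild type (wt) controls were of the same background and age. Mice were 10 days, 4.5 months, 9 months, 14.5 months or 20 months old, with 3 mice of each genotype at each age, apart from 4 wt mice at 10 days. The transgene carries no sequence that the Glud1 probe sets of the array detect, so the genotype labels could not be checked on it.

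A signal is the authors' intensity, quantile normalized over the 31 arrays, in arbitrary units, and it does not rank 1 gene against another. Changes are log2 fold changes ± SE from a limma model of the 10 groups. A gene is shown by its tested probe set of highest mean signal and was called at an adjusted p under 0.05 over all tested probe sets. Arrays of 1 age resembled each other in control measures: the log2 ratio of the 3′ to the 5′ Gapdh probe sets lay between -0.08 and 0.02 at 4.5 months and no higher than -0.14 at every other age, and that of actin lay between 0.71 and 0.96 at 9 months and no higher than 0.55 elsewhere. Age and the processing of the arrays cannot be told apart. The tissue is whole hippocampus, in which fewer cells of a type and less RNA per cell cannot be told apart. All 5 dentate gyrus and 6 CA1 to CA3 markers passed the filter, and so did all 5 thalamus markers.

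From 10 days to adulthood the guidance genes moved both ways. At 4.5 months against 10 days, 18 of the 66 genes rose, where 31.2% of all genes tested rose, and 26 fell, where 35.5% of all genes fell. Counts of calls here and below take in genes whose changes are given as a description only. In development these are Ntn5, Ntn3 and Epha10 among the rises and Epha8 and Efna4 among the falls. In aging Ntn3 is among the falls. The median change of the 66 genes was -0.09, against -0.04 over all genes, so the shares and the median lay near those of the array as a whole. At 9 months against 10 days 14 guidance genes rose and 35 fell, with a median change of -0.29, against -0.07 over all genes. Called in either direction there were 49 of the 66, against 8632 of all 12844 genes, which were not split by direction. In adult mice the balance was different: at 20 months against 4.5 months 6 guidance genes rose, against 22.4% of all genes, and 26 fell, against 19.9% of all genes. The median change with aging was -0.21 for guidance genes and 0.03 for all genes. The development and aging comparisons share the 4.5-month arrays. When 9 months took the place of 4.5 months in the aging comparison, 13 guidance genes rose and 14 fell. In either direction 27 of the 66 were called there, against 5085 of all 12844 genes, again not split by direction. The excess of falls over rises thus depends on which adult age is compared with 20 months. The 4.5-month arrays stand apart in the Gapdh ratio and the 9-month arrays in the actin ratio, and the part of these ratios in the counts was not tested.

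**Figure D1:**
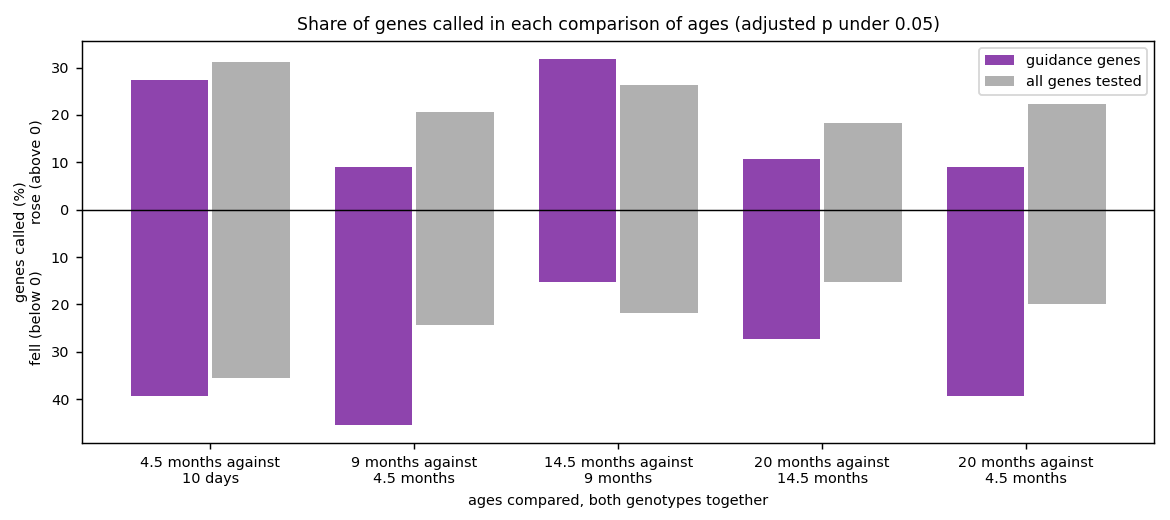
Percent of genes called at an adjusted p under 0.05 (vertical axis, rises above 0 and falls below 0) in 5 comparisons of ages, for the 66 guidance genes (purple) and all 12844 genes tested (grey). At 9 months against 4.5 months 45.5% of guidance genes fell, against 24.3% of all genes, while at 14.5 months against 9 months 31.8% rose, against 26.3% of all genes.

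**Figure D2:**
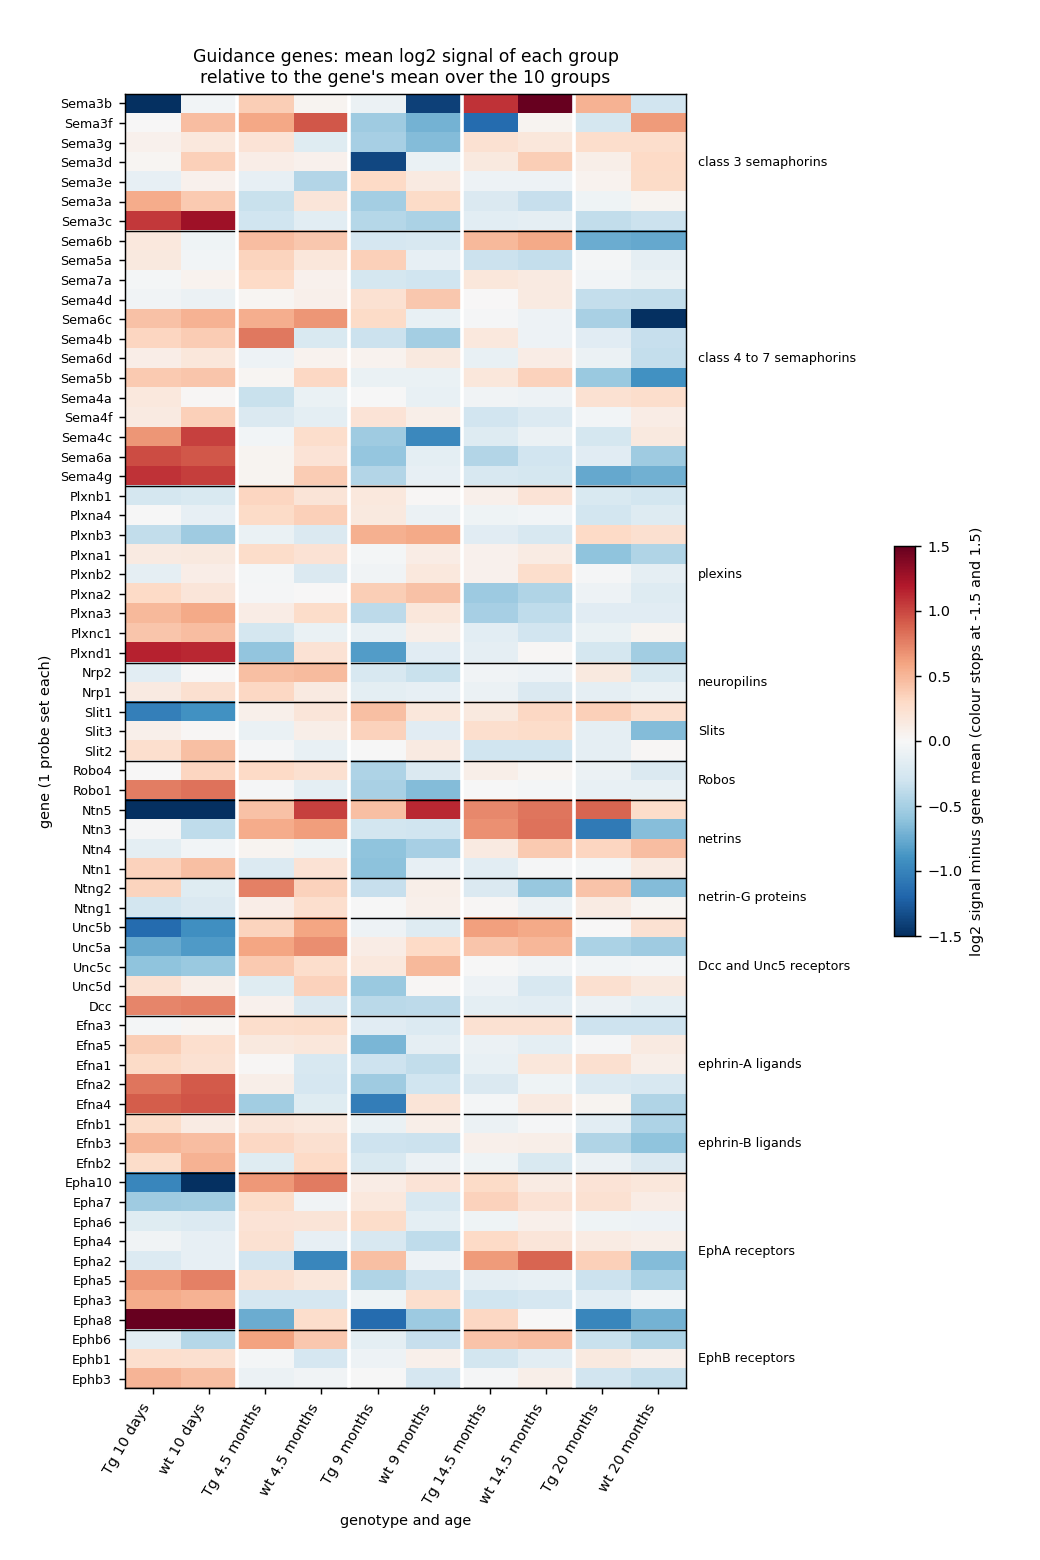
Mean log2 signal of each of the 10 groups (columns, Tg left of wt at each age) for the 66 guidance genes (lines of the map, by family and, within it, by the size of the change from 10 days to 4.5 months), relative to the gene's mean over the groups. Ntn5, Slit1, Unc5a, Unc5b and Epha10 were lowest at 10 days, and Sema3c, Plxnd1, Efna4 and Epha8 were highest there.

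Cell type markers moved with age too. Between 10 days and 4.5 months all 6 markers of newborn neurons and dividing cells fell, with a summed signal of 3784 to 4434 at 4.5 months and 18740 to 22040 at 10 days. All 7 oligodendrocyte markers rose, to a sum of 51380 to 68760 at 4.5 months, against 6089 to 12050 at 10 days, and 5 of 6 neuronal markers rose. Of the markers of pericytes and meninges 6 of 7 fell, with sums of 6986 to 8184 at 4.5 months and 9844 to 14450 at 10 days. In the same step 4 of 5 dentate gyrus markers rose. Of 7 microglial markers 5 rose and 2 fell, of 6 interneuron markers 5 rose and 1 fell, and of 6 precursor markers of oligodendrocytes 1 rose and 4 fell. In aging, 4 of the 6 neuronal markers fell, with sums of 74320 to 78150 at 20 months and 83580 to 92310 at 4.5 months, and 1 of 7 oligodendrocyte markers rose. Rises were also called for 4 of 7 microglial markers, with sums of 10760 to 11640 at 20 months and 10010 to 11490 at 4.5 months, and for 3 of 5 ependymal markers, with sums of 1204 to 1781 at 20 months and 313.7 to 773.3 at 4.5 months. Of the endothelial markers 3 of 7 fell, and so did 3 of 6 markers of oligodendrocyte precursors, of which 1 rose. The part of these cell types in the changes below was not tested.

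Among the netrins, Ntn5, a little-studied member, was far higher in adult mice than at 10 days. Its signal was 242, 207 and 246 in Tg mice and 299, 521 and 264 in wt mice at 4.5 months, against 51.2, 39.3 and 21.7 in Tg mice and 20.1, 15.3, 14.9 and 12.9 in wt mice at 10 days. Every adult array lay above every array of 10 days. The signal at 9, 14.5 and 20 months had medians of 326, 285 and 273. The fitted log2 change was 3.59 ± 0.21, given as a description: signals at 10 days lie far below the array medians of 91.4 to 102 before quantile normalization and are not shown to be above background, and the gene passed the filter through its adult arrays, so its change is not ranked among the others. Ntn1, the attractant of commissural axons, went the other way: its signal ran over 141, 205 and 252 (lowest, median, highest) at 4.5 months and 233, 254 and 305 at 10 days, and these ranges overlapped. It fell by 0.39 ± 0.13 (adjusted p = 0.0101), but its change was -0.17 (adjusted p = 0.239) without quantile normalization.

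Ntn3, a further secreted netrin, had signals of 87.1 to 133 at 4.5 months and 33.1 to 82.6 at 10 days, close to the array median. The gene passed the filter through arrays of 4.5 and 14.5 months, where it was highest, so its changes are given as a description. Its fitted change was 0.79 ± 0.34. Over the 31 fits that left out 1 array this change ran from 0.67 to 0.89. At 9 months against 10 days its change was -0.09. The netrin-G protein Ntng1, which is anchored in the axon membrane and binds Lrrc4c rather than Dcc, rose by 0.42 ± 0.09 (adjusted p = 0.000241), with 859 to 1100 at 4.5 months and 559 to 820 at 10 days. Ntn4 (0.08 ± 0.13) and Ntng2 (0.47 ± 0.49) were not called.

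Of the netrin receptors, 3 Unc5 genes rose in development and Dcc fell. Unc5a, a repellent netrin receptor, had lowest, median and highest signals of 1610, 1720 and 2210 at 4.5 months and 565, 634 and 772 at 10 days, a log2 change of 1.45 ± 0.08 (adjusted p = 2.08e-15). Unc5b, a netrin receptor also known from vessel tips, had 424, 478 and 639 at 4.5 months and 115, 175 and 226 at 10 days, a change of 1.50 ± 0.13 (adjusted p = 2.3e-11). Unc5c had 909, 970 and 1060 at 4.5 months and 454, 488 and 610 at 10 days, a change of 0.91 ± 0.09 (adjusted p = 5.87e-10). The ranges of the 2 ages did not overlap for any of these 3 receptors. A second probe set of Unc5c changed by 0.16 ± 0.10 (adjusted p = 0.194). Dcc, which mediates attraction to netrin, had 781, 876 and 1040 at 4.5 months and 1420, 1570 and 1780 at 10 days, and fell by 0.81 ± 0.08 (adjusted p = 3.45e-10). Its adult arrays all lay below those of 10 days. Of its other probe sets, 1 fell by 0.64 ± 0.09 and 1 of low signal changed by 0.67 ± 0.53, and as the mean of its probe sets Dcc changed by -0.26 (adjusted p = 0.155), which is no call. Unc5d was not called (-0.07 ± 0.15).

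The promoters of the receptors that rose are shown beside that of Ntn5, whose 10-day level is not shown to be above background, and that of Sema3c, the largest fall among class 3 semaphorins, since all of them changed with no overlap between ages. Each is the RefSeq window of 250 bases before to 50 after the annotated start in GRCm38.p6, printed 5′ to 3′ along the gene, and RefSeq's table matched 60 of the 71 genes with 76 windows. Capitals mark the GC box GGGCGG (or CCGCCC on the other strand) and the E-box CAGCTG, which reads the same on both strands; matches that overlap were counted singly.
Unc5a (chr13:54949161-54949460, plus strand): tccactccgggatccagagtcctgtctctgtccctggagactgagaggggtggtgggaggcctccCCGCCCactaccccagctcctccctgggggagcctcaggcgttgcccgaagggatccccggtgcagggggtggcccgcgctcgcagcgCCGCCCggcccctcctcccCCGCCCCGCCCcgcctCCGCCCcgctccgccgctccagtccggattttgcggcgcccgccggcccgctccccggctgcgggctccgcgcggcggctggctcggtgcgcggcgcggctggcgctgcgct
Unc5b (chr10:60831532-60831831, minus strand): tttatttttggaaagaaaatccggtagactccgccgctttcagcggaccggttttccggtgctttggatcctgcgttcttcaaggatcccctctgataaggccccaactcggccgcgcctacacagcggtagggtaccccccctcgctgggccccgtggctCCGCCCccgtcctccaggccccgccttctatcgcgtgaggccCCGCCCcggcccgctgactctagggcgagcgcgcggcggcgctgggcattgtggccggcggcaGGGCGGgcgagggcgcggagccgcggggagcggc
Unc5c (chr3:141465314-141465613, plus strand): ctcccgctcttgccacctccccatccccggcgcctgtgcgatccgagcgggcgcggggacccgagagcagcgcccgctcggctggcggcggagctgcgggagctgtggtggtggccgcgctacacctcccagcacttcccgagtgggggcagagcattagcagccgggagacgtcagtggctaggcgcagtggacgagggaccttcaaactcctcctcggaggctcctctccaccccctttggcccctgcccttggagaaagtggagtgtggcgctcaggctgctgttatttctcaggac
Ntn5 (chr7:45683772-45684071, plus strand): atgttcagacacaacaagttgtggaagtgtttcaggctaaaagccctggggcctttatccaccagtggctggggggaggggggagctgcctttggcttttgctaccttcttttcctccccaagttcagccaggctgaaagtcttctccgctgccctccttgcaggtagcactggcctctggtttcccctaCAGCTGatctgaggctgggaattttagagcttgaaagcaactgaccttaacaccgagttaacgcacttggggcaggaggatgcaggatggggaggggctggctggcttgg
Sema3c (chr5:17574566-17574865, plus strand): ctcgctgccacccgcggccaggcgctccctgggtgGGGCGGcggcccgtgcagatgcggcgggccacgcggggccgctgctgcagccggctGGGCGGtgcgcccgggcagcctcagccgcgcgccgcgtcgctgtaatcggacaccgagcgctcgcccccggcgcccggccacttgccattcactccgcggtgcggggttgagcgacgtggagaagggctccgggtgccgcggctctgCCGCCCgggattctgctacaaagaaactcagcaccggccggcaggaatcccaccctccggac
The window of Unc5a holds 5 GC boxes, a pair of which overlap, and 78.3% G and C. Unc5b holds 3 GC boxes, Sema3c also 3, and Unc5c none at 68.3% G and C, so the receptors that rose together do not share this motif in these windows. The window of Ntn5 holds no GC box and 1 E-box, with 55.3% G and C. Of the 76 windows of guidance genes 71.1% hold a GC box and 15.8% the E-box CAGCTG, against 35.7% and 16.3% of all 32851 windows. The median content of G and C was 64% in the guidance windows and 52.7% in all windows. Shares for the other motifs searched on both strands were 6.58% of guidance windows and 7.15% of all windows for the E-box CACGTG, 2.63% and 13.6% for TATAAA, and 5.26% and 7.51% for the cAMP response core TGACGT.

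**Figure D3:**
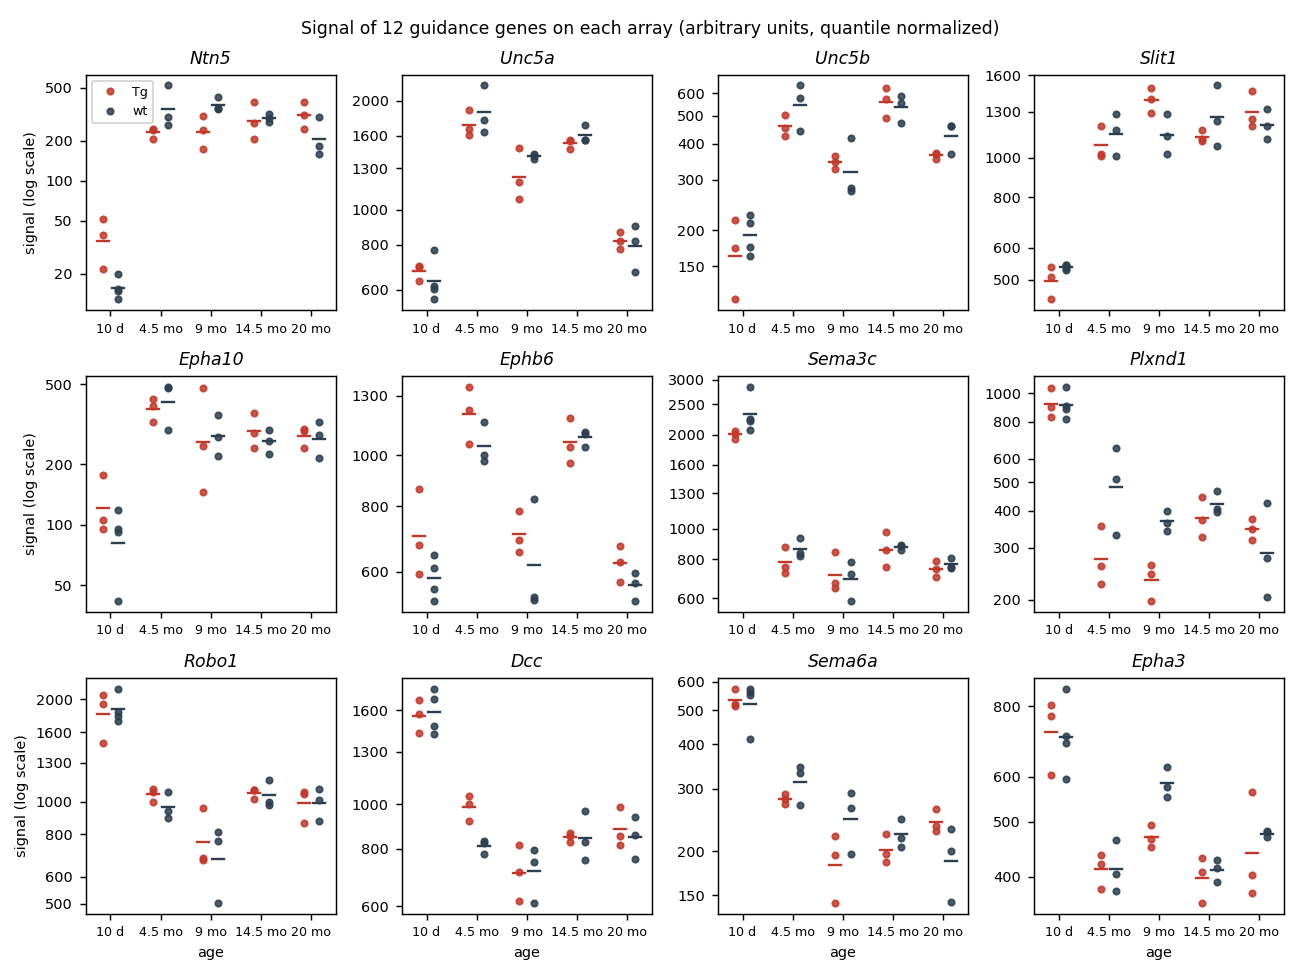
Signal on each of the 31 arrays (dots, log scale, arbitrary units) for 12 guidance genes, by age, with Tg in red left of wt in dark blue and a bar at each group's geometric mean. Ntn5, Unc5a, Unc5b, Slit1, Epha10 and Ephb6 had their lowest or near-lowest levels at 10 days, and Sema3c, Plxnd1, Robo1, Dcc, Sema6a and Epha3 had their highest there.

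Slit1, a secreted repellent that binds Robo receptors, rose while its relative Slit2 and the receptor Robo1 fell. Slit1 signals were 1010, 1020 and 1200 in Tg mice and 1170, 1010 and 1280 in wt mice at 4.5 months, against 539, 507 and 448 in Tg mice and 530, 545, 536 and 545 in wt mice at 10 days. Adult and 10-day arrays did not overlap, and the change was 1.10 ± 0.08 (adjusted p = 3.28e-13). Slit1 stayed at medians of 1280, 1140 and 1230 at 9, 14.5 and 20 months. Slit2 had signals of 1210 to 1420 at 4.5 months and 1480 to 2100 at 10 days, a fall of 0.42 ± 0.07 (adjusted p = 4.9e-06). Robo1, a Slit receptor of axons and migrating neurons, had 895, 1030 and 1090 at 4.5 months and 1490, 1840 and 2150 at 10 days, and fell by 0.87 ± 0.10 (adjusted p = 1.73e-08). For both Slit2 and Robo1 every 4.5-month array lay below every 10-day array. Slit3 (-0.06 ± 0.15) and Robo4, the endothelial member of the family (0.11 ± 0.16), were not called. Robo2 and Robo3 did not pass the filter, with signals of 23.2 to 140 and 51.8 to 126 over all arrays for their brighter probe sets, so the pairing of Slit1 with Robo2 could not be followed.

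Of the 7 class 3 semaphorins, which are secreted, 3 fell from 10 days to 4.5 months and none rose. Sema3c, which acts through neuropilins and Plxnd1, had lowest, median and highest signals of 724, 829 and 931 at 4.5 months and 1940, 2070 and 2840 at 10 days, with no overlap, and fell by 1.39 ± 0.08 (adjusted p = 2.95e-15). Its levels at 9, 14.5 and 20 months had medians of 693, 868 and 751. Sema3a, the classical repellent of Nrp1-bearing axons, had 109 to 359 at 4.5 months and 193 to 294 at 10 days, overlapping through 1 wt mouse of 4.5 months at 359. It fell by 0.55 ± 0.17 (adjusted p = 0.00642), with -0.21 (adjusted p = 0.467) in wt mice alone and -0.32 (adjusted p = 0.106) without quantile normalization. Sema3e, which binds Plxnd1 without a neuropilin, fell by 0.25 ± 0.08 (adjusted p = 0.00718). Sema3b had the largest error of the 66 genes (1.16 ± 0.72, not called). Its signals ran over 40.9 to 269 at 4.5 months and 3.51 to 114 at 10 days, and beside it the summed signal of 6 choroid plexus markers ran over 646 to 44070 and 1351 to 42420. Their part in its spread was not tested.

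The membrane-bound and other semaphorins of classes 4 to 7 held 2 genes that rose, 6 that fell and 5 that were not called. Sema4g had 515, 595 and 715 at 4.5 months and 927, 1060 and 1180 at 10 days, a fall of 0.85 ± 0.09 (adjusted p = 1.4e-09). Sema6a, a transmembrane ligand of the plexins Plxna2 and Plxna4, had 270, 285 and 345 at 4.5 months and 414, 551 and 574 at 10 days, and fell by 0.83 ± 0.12 (adjusted p = 9.11e-07). The ages did not overlap in either gene. Sema4c, a ligand of Plxnb2, fell by 0.74 ± 0.15 (adjusted p = 0.000131). The rises were small: Sema6b changed by 0.38 ± 0.11 (adjusted p = 0.00432) and Sema7a, a ligand of Plxnc1 held in the membrane by a lipid anchor, by 0.17 ± 0.07 (adjusted p = 0.0313). At 9 months against 10 days both had the opposite sign, -0.30 for Sema6b and -0.29 for Sema7a, so their direction depends on which adult age is used.

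The plexins, the receptors of the semaphorins, split as well, with 3 that rose, 4 that fell and 2 that were not called. Plxnd1 had signals of 356, 260 and 226 in Tg mice and 332, 512 and 654 in wt mice at 4.5 months, against 832, 1040 and 899 in Tg mice and 819, 907, 1050 and 886 in wt mice at 10 days. All 4.5-month arrays lay below all 10-day arrays, and the change was -1.33 ± 0.15 (adjusted p = 4.22e-09). Plxnc1, the receptor of Sema7a, fell by 0.62 ± 0.12 (adjusted p = 3.92e-05), with 858 to 1740 at 4.5 months and 1500 to 1910 at 10 days. Plxnb1, the receptor of Sema4d, rose by 0.50 ± 0.12 (adjusted p = 0.000515), and 566 to 799 at 4.5 months lay above 382 to 564 at 10 days. Plxna4, a partner of neuropilins in Sema3a signaling, rose by 0.39 ± 0.08 (adjusted p = 0.000123) but by 0.10 (adjusted p = 0.295) when 9 months stood in for 4.5 months. Of the neuropilins, Nrp2 rose by 0.54 ± 0.12 on its brightest probe set and Nrp1 was not called (0.04 ± 0.10); their probe sets disagreed, as given below.

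Among the Eph receptors, Epha10, whose kinase domain is inactive, had 421, 389 and 324 in Tg mice and 296, 484 and 478 in wt mice at 4.5 months, against 177, 95.5 and 105 in Tg mice and 92.1, 95.6, 41.7 and 119 in wt mice at 10 days. Its fitted change of 1.98 ± 0.23 is given as a description, since the gene passed the filter through its adult arrays. Ephb6, another receptor without kinase activity, had 975, 1110 and 1350 at 4.5 months and 528, 610 and 862 at 10 days, a rise of 0.80 ± 0.10 (adjusted p = 2.08e-08) that shrank to 0.05 (adjusted p = 0.679) at 9 months against 10 days. Epha7, a receptor of ephrin-A ligands, rose by 0.64 ± 0.09 (adjusted p = 7.16e-07). Epha3 had 378, 413 and 464 at 4.5 months and 596, 708 and 858 at 10 days, with no overlap, and fell by 0.79 ± 0.09 (adjusted p = 1.98e-08). Epha8 had low signals of 8.91 to 104 at 4.5 months and 115 to 206 at 10 days. Its fitted change of -2.01 ± 0.57 is given as a description, since the gene passed the filter through its 10-day arrays. Ephb3 (-0.55 ± 0.11) and Ephb1 (-0.39 ± 0.09) also fell. Epha4, a receptor of both ephrin classes, was not called (0.14 ± 0.11), and neither was Epha2 (-0.47 ± 0.54).

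Of the 8 ephrins, 1 rose and 4 fell, with Efna4 counted among the falls. Efna4 had signals of 40.8, 52.3 and 86.5 at 4.5 months and 108, 140 and 156 at 10 days. Its fitted change of -1.28 ± 0.27 is given as a description, since the gene passed the filter through its 10-day arrays. Efna2 had 166, 250 and 280 at 4.5 months and 373, 433 and 626 at 10 days, with no overlap, and fell by 0.95 ± 0.15 (adjusted p = 1.77e-06). Both are ligands of EphA receptors tied to the membrane by a lipid anchor. Efna3, a ligand that astrocytes use toward Epha4 on spines, rose by 0.28 ± 0.08 (adjusted p = 0.0028) on ranges that overlapped, and at 9 months against 10 days its change was -0.18. The mean of its probe sets changed by 0.12 (adjusted p = 0.0783). The transmembrane ligands Efnb2 (-0.34 ± 0.12) and Efnb3 (-0.20 ± 0.06) fell, and Efna5, Efna1 and Efnb1 were not called.

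With aging, from 4.5 to 20 months, the transmembrane semaphorins Sema6c and Sema6b fell by more than 1 on the log2 scale, while Sema6a and Sema6d of the same class changed by -0.48 ± 0.13 and -0.21 ± 0.07. Sema6c signals were 151, 160 and 201 in Tg mice and 68.7, 51.5 and 93.1 in wt mice at 20 months, against 298, 360 and 386 in Tg mice and 309, 462 and 364 in wt mice at 4.5 months. No 20-month array reached a 4.5-month one, and the change was -1.73 ± 0.17 (adjusted p = 1.79e-09). A second probe set changed by -1.32 ± 0.40 (adjusted p = 0.00988). Sema6b had 233, 261 and 286 at 20 months and 446, 578 and 760 at 4.5 months, with no overlap, and fell by 1.19 ± 0.12 (adjusted p = 1.96e-09), although its median of 636 at 14.5 months was higher than at 4.5 months. Sema4g fell by 0.96 ± 0.09 (adjusted p = 9.9e-10), and its medians over the 5 ages were 1060, 595, 426, 427 and 304. Sema5b fell by 0.91 ± 0.16 (adjusted p = 3.39e-05), and 5 others of classes 4 to 7 fell by 0.21 to 0.48. These 4 leading falls were also called at 20 months against 9 months, at -1.22 for Sema6c, -0.51 for Sema6b, -0.47 for Sema4g and -0.64 for Sema5b.

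**Figure D4:**
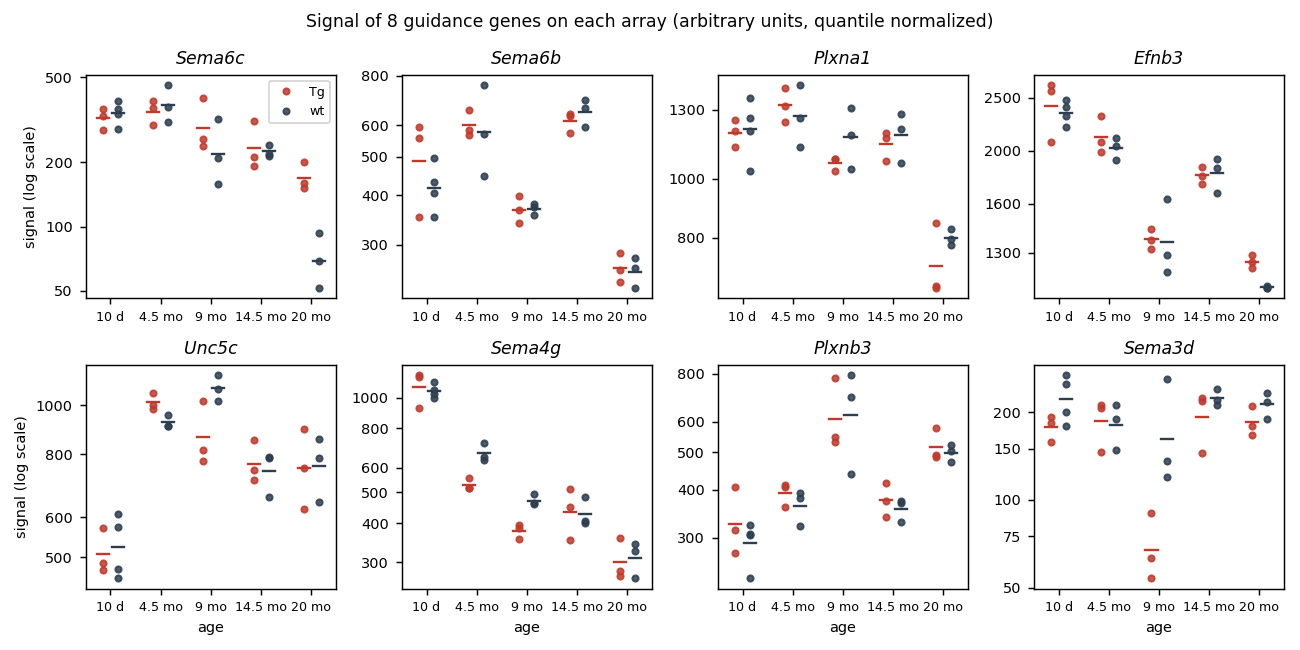
Signal on each of the 31 arrays (dots, log scale, arbitrary units) for 8 guidance genes, by age, with Tg in red left of wt in dark blue and a bar at each group's geometric mean. Sema6c, Sema6b, Plxna1, Efnb3 and Sema4g were lowest at 20 months, Plxnb3 was highest at 9 months, and Sema3d was low in Tg mice at 9 months.

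Among receptors, Unc5a had the largest fall with aging. Its signals were 821, 780 and 866 in Tg mice and 904, 817 and 673 in wt mice at 20 months, against 1610, 1670 and 1890 in Tg mice and 1770, 2210 and 1640 in wt mice at 4.5 months. The ages did not overlap, and the change was -1.15 ± 0.08 (adjusted p = 5.24e-12), with medians of 634, 1720, 1390, 1560 and 819 from 10 days to 20 months. Plxna1, a plexin that pairs with neuropilins, was nearly level from 10 days to 14.5 months, with medians of 1200, 1290, 1080 and 1180, and had 660, 786 and 844 at 20 months, below every earlier array. It fell by 0.77 ± 0.08 (adjusted p = 1.86e-09) from 4.5 to 20 months and by 0.56 from 9 to 20 months. Ephb6 had 529, 585 and 673 at 20 months and 975, 1110 and 1350 at 4.5 months and fell by 0.91 ± 0.10 (adjusted p = 1.23e-08), but by 0.16 (adjusted p = 0.216) from 9 months. Plxna4 (-0.56 ± 0.08), Plxnb1 (-0.51 ± 0.12), Nrp2 (-0.50 ± 0.12), Plxna3 (-0.37 ± 0.12), Unc5c (-0.36 ± 0.09), Nrp1 (-0.34 ± 0.10) and Unc5b (-0.34 ± 0.13) also fell. As the mean of its probe sets Unc5c changed by -0.06 (adjusted p = 0.591), and was not called.

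Of the ligands, Efnb3, a transmembrane ephrin, had 1120, 1170 and 1290 at 20 months and 1920, 2060 and 2310 at 4.5 months, with no overlap, and fell by 0.81 ± 0.07 (adjusted p = 3.8e-11). Efna3 fell by 0.58 ± 0.08 (adjusted p = 8.25e-07), but from 9 to 20 months its change was -0.12 (adjusted p = 0.225). Ntn3 had signals of 18 to 89 at 20 months and 87.1 to 133 at 4.5 months. Its fitted change of -1.44 ± 0.35 is given as a description, since it passed the filter through arrays of 4.5 and 14.5 months. Efnb1 fell by 0.48 ± 0.18 (adjusted p = 0.0349), a call that was lost without single arrays, with changes from -0.58 to -0.30. Of the Slits none was called with aging.

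The 6 rises with aging were small. Sema4a changed by 0.46 ± 0.11 (adjusted p = 0.000978), Sema3e by 0.45 ± 0.08 (adjusted p = 6.21e-05), Plxnb3 by 0.43 ± 0.13 (adjusted p = 0.00723), Ntn4 by 0.41 ± 0.14 (adjusted p = 0.0205), Ephb1 by 0.25 ± 0.10 (adjusted p = 0.0378) and Sema4f by 0.21 ± 0.07 (adjusted p = 0.0113). Sema3e had lowest, median and highest signals of 1700, 2050 and 2460 at 20 months and 1150, 1510 and 1930 at 4.5 months, which overlapped, and its change in Tg mice alone was 0.18 (adjusted p = 0.305). Plxnb3, a plexin best known from oligodendrocytes, had 473, 499 and 577 at 20 months and 321, 387 and 412 at 4.5 months, which did not overlap, while its second probe set changed by -0.06 ± 0.17. Ntn4, a netrin of basement membranes, had 313, 447 and 598 at 20 months and 303, 341 and 409 at 4.5 months, which overlapped. Against 9 months the changes of Sema3e, Plxnb3 and Sema4f had the opposite sign (-0.05, -0.28 and -0.11), and only Sema4a and Ntn4 of the 6 were called there, at 0.31 and 0.95. With each gene as the mean of its probe sets the changes were 0.21 for Ntn4 (adjusted p = 0.555), 0.16 for Sema4a (adjusted p = 0.113) and 0.19 for Plxnb3 (adjusted p = 0.244), none of them called, and -0.22 for Sema4f (adjusted p = 0.0167). For Ephb1 the call was lost in 8 of the 31 fits that left out 1 array, with changes from 0.19 to 0.34.

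Between neighboring adult ages more guidance genes fell, then rose, then fell. At 9 months against 4.5 months 6 guidance genes rose (20.6% of all genes rose) and 30 fell (24.3% of all genes fell), with a median change of -0.31, against -0.03 over all genes. At 14.5 months against 9 months 21 rose (26.3% of all genes) and 10 fell (21.9%), with medians of 0.14 and 0.06. At 20 months against 14.5 months 7 rose (18.3%) and 18 fell (15.3%), with medians of -0.09 and 0.02. Neighboring comparisons share arrays, and the 9-month arrays stand apart in the actin ratio, whose part in these counts was not tested. Neuronal markers took the same order: 6 of 6 fell at 9 months, 5 rose and 1 fell at 14.5 months and 4 fell at 20 months. Their summed signals were 83580 to 92310 at 4.5 months, 67890 to 76970 at 9 months, 87090 to 93270 at 14.5 months and 74320 to 78150 at 20 months, with no overlap between neighboring ages. The part of these markers in the counts of guidance genes was not tested.

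Single genes followed this order or its reverse. Sema6b (-0.68 ± 0.12, 0.78 ± 0.12 and -1.28 ± 0.12), Ephb6 (-0.76 ± 0.10, 0.69 ± 0.10 and -0.85 ± 0.10) and Efnb3 (-0.60 ± 0.07, 0.40 ± 0.07 and -0.61 ± 0.07) fell, rose and fell, and each was called at each step. Plxna2, a receptor of transmembrane semaphorins, took the reverse order. Its lowest, median and highest signals were 1860, 1940 and 2090 at 4.5 months, 2440, 2620 and 2750 at 9 months, 1290, 1380 and 1510 at 14.5 months and 1570, 1800 and 2020 at 20 months. No array of 9 or 14.5 months overlapped an array of a neighboring age. The changes were 0.41 ± 0.07 (adjusted p = 1.98e-05), -0.90 ± 0.07 (adjusted p = 2.4e-11) and 0.36 ± 0.07 (adjusted p = 0.00019), and from 4.5 to 20 months its change was -0.13 ± 0.07 and not called. Plxnb3 had the same signs as Plxna2, at 0.71 ± 0.13, -0.75 ± 0.13 and 0.47 ± 0.13. Sema3d, Sema3g and Ntn4 had their lowest median at 9 months, and Ntn4 had medians of 333, 341, 224, 430 and 447 over the 5 ages. Beside them, 3 of 7 markers of pericytes and meninges fell and 1 rose at 9 months against 4.5 months, and 5 of 7 rose at 14.5 months. Their summed signals were 6986 to 8184 at 4.5 months, 4837 to 8188 at 9 months and 6805 to 9457 at 14.5 months. Of the thalamus markers 3 of 5 fell at 9 months and 5 of 5 rose at 14.5 months, with sums of 2226 to 2991 at 4.5 months, 1413 to 2517 at 9 months and 2783 to 3606 at 14.5 months. Of the endothelial markers 3 of 7 fell at 9 months, and 4 rose and 1 fell at 14.5 months. The part of these markers was not tested.

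Several genes carry probe sets that were called in opposite directions, so that no single direction can be given for them. Nrp2, the receptor of Sema3f, had 4 tested probe sets with development changes of 0.54 ± 0.12, -1.13 ± 0.10, 0.31 ± 0.10 and 1.77 ± 0.43 in falling order of signal, all called. Nrp1 had 0.04 ± 0.10, -0.22 ± 0.08, 0.45 ± 0.13 and 0.64 ± 0.10, of which the last 3 were called. Sema4f had -0.43 ± 0.06 and 0.47 ± 0.10 in development and 0.21 ± 0.07 and -0.66 ± 0.11 in aging. For Sema4a the development changes were -0.30 ± 0.10 and 0.21 ± 0.09, and for Sema6d they were -0.15 ± 0.06 and 0.48 ± 0.12. The brightest probe sets of Sema4a and Sema4f belong to a class whose probes can also match other transcripts. Epha5, an ephrin-A receptor, fell on all 4 of its probe sets in development, by 0.50 to 1.15, but had -0.60 ± 0.08, 0.28 ± 0.08 and -0.35 ± 0.10 with aging on its 3 brightest, all called. Whether the probe sets of a gene detect different transcript ends was not tested.

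**Figure D5:**
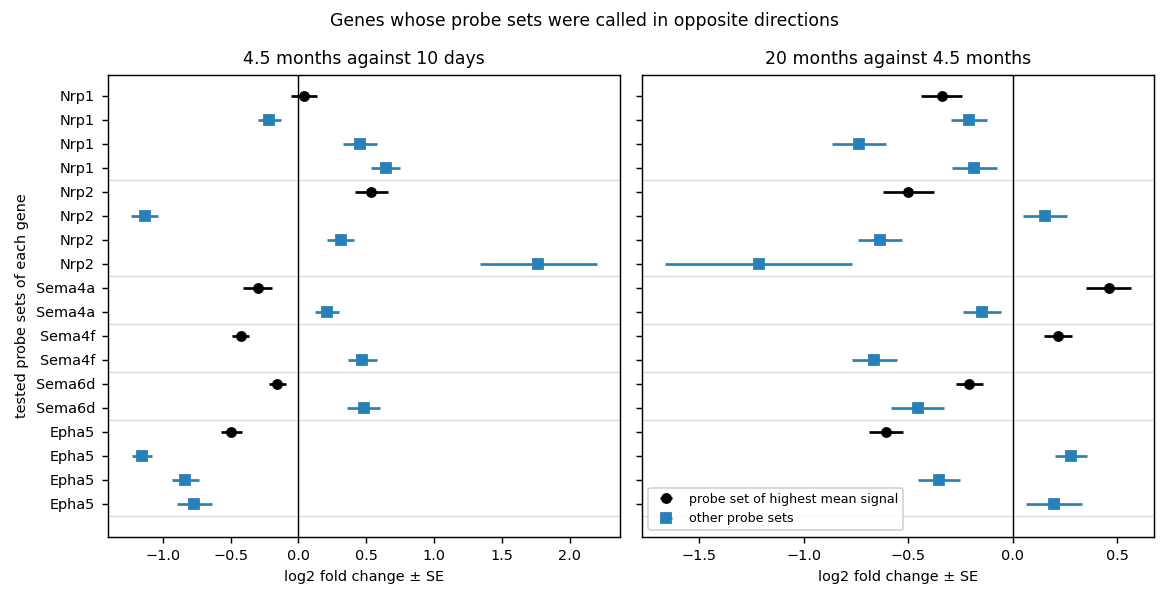
Log2 fold change ± SE of every tested probe set of 6 genes, at 4.5 months against 10 days (left) and at 20 months against 4.5 months (right). Black circles are the probe sets of highest mean signal and blue squares the others; the 4 probe sets of Nrp2 lay between -1.13 and 1.77 in development.

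Few guidance genes were called between the genotypes. Over the 5 ages together no guidance gene was called in an F-test of Tg against wt (0.195% of all genes were called), and 12 of 66 had an unadjusted p under 0.05 (18.2%, against 9.28% of all genes). At 10 days none was called (0.00779% of all genes), at 4.5 months none (0%), at 9 months 1 (2.99%), at 14.5 months none (0%) and at 20 months 1 (0.0389%). The numbers with an unadjusted p under 0.05 were 3, 12, 18, 1 and 4 of 66 from 10 days to 20 months. As shares these were 4.55%, 18.2%, 27.3%, 1.52% and 6.06% of guidance genes, against 5.65%, 6.73%, 18.1%, 0.942% and 4.84% of all genes at the same ages, so at 4.5 and 9 months the share was higher among guidance genes, with no test of the excess. The change from 10 days to 4.5 months did not differ between genotypes for any guidance gene at the threshold (0% of all genes), nor did the change from 4.5 to 20 months (0.00779% of all genes), with 8 of 66 at an unadjusted p under 0.05 in each (12.1%, against 6.73% and 6.51% of all genes).

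Sema3d, a secreted class 3 semaphorin, was the gene called at 9 months. Its signals were 90, 63.1 and 53.9 in Tg mice and 120, 136 and 259 in wt mice, which did not overlap, and the log2 difference, Tg minus wt, was -1.26 ± 0.25 (adjusted p = 0.00531). At the other ages the difference lay between -0.32 and 0.04. Of 7 markers of pericytes and meninges none was called at 9 months, and their median difference was -0.65, with summed signals of 4837 to 6981 in Tg mice and 5503 to 8188 in wt mice. Other markers were called at this age: 2 of 5 dentate gyrus markers were higher in Tg mice, with sums of 4913 to 5211 in Tg mice and 2930 to 4264 in wt mice, 1 of 6 interneuron markers was lower, with sums of 15940 to 18700 in Tg mice and 19290 to 22110 in wt mice, and 1 of 5 thalamus markers was lower, with sums of 1413 to 2161 in Tg mice and 2024 to 2517 in wt mice. The sums did not overlap for the dentate gyrus and interneuron lists, and the part of these markers in Sema3d was not tested. With the arrays of 9 months fitted alone the same difference had an adjusted p of 0.373, and the gene was not tested where the mean signal had to exceed the 60th percentile.

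Sema6c was the gene called at 20 months. It was higher in Tg mice, at 151, 160 and 201, than in wt mice, at 68.7, 51.5 and 93.1, with no overlap, a difference of 1.29 ± 0.24 (adjusted p = 0.0363). Its second probe set differed by 0.42 ± 0.57 and was not called, and with an offset of 50 before log2 the difference was 0.87 (adjusted p = 0.237). The call was lost in 12 of the 31 fits that left out 1 array, over which the difference ran from 1.08 to 1.51. The fall of Sema6c from 4.5 to 20 months differed between genotypes by 1.40 ± 0.34 (Tg minus wt) with an adjusted p of 0.59.

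In the F-test over the 5 ages the smallest p values were those of Sema6c, Ntn5, Sema3d and Plxnd1, in this order. Their adjusted p were 0.106, 0.121, 0.126 and 0.157. At 10 days Ntn5 was 51.2, 39.3 and 21.7 in Tg mice and 20.1, 15.3, 14.9 and 12.9 in wt mice, a difference of 1.17 ± 0.28 (adjusted p = 0.187) on very low signals. Plxnd1 differed by -0.80 ± 0.21 at 4.5 months (adjusted p = 0.522), with 356, 260 and 226 in Tg mice and 332, 512 and 654 in wt mice, and by -0.66 ± 0.21 at 9 months (adjusted p = 0.0791). Sema6d was the fifth by this p, with an adjusted p of 0.291. Probe sets other than the brightest were called at 9 months for Epha4 (0.99 ± 0.19, adjusted p = 0.00577), Plxna4 (0.53 ± 0.15, adjusted p = 0.0452) and Sema4a (-0.49 ± 0.13, adjusted p = 0.0311), while the brightest differed by 0.14 ± 0.16, 0.24 ± 0.12 and 0.11 ± 0.15 and were not called.

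Some known ligand and receptor partners changed in the same direction in development and others in opposite directions. Sema3a fell by 0.55 while its plexin Plxna4 rose by 0.39, and Sema3c and its receptor Plxnd1 both fell, by 1.39 and 1.33. Sema7a rose by 0.17 and Plxnc1 fell by 0.62, Slit1 rose by 1.10 and Robo1 fell by 0.87, and Ntn1 and Dcc fell by 0.39 and 0.81 while Unc5c rose by 0.91. Efna5 was not called and Epha5 fell by 0.50, and Efnb2 and Ephb1 fell by 0.34 and 0.39. With aging Sema4d and Plxnb1 fell by 0.42 and 0.51, and Efna3 fell by 0.58 while Epha4 was not called at 0.05 ± 0.12. These values are set side by side with no test of a pair. The direction of Sema7a depends on the adult age used. Among others, Sema3a, Plxna4, Ntn1 and Dcc were each not called in development under an alternative given above.

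The other genes of the pathway, from lists of cues, receptors and effectors, were counted alike. Of 17 other cues tested, which include Wnts, Flrt proteins and repulsive guidance molecules, 4 rose and 4 fell at 4.5 months against 10 days, and 4 rose and 5 fell at 20 months against 4.5 months. Of 26 other receptors and co-receptors, 8 rose and 13 fell in development and 6 rose and 11 fell in aging. Of 52 intracellular effectors, 19 rose and 22 fell in development and 12 rose and 20 fell in aging. The median changes of these lists were -0.06, -0.12 and -0.05 in development and -0.11, -0.15 and -0.13 in aging, all below the median of all genes in aging, 0.03. Over all genes 31.2% rose and 35.5% fell in development, and 22.4% rose and 19.9% fell in aging.

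The 5 guidance genes that were not tested had low signals throughout. Besides Robo2 and Robo3 these were Epha1 and Ephb4, receptors of ephrin-A and ephrin-B ligands, and Plxna4os1. The median signals of Epha1 at the 5 ages lay between 3.55 and 33.6, and those of Plxna4os1 between 19 and 26.5. No change is given for them, and their signals are not shown to be above background, since the table holds no such call.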

How the data were processed

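Hippocampal RNA of 31 mice was hybridized to Affymetrix GeneChip arrays of the mouse genome, 1 mouse for each array. The values deposited by the authors are linear signal intensities per probe set, made with MAS5 per the labels, whose version is not given in the sources used here. The paper describes RMA values from the image files, which were not used here, so the test could not start from them. Of the mouse probe sets 34945 are listed for 1 gene, 932 for several and 9160 for none, and 64 control probe sets were set aside.

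Intensities were turned to log2 and quantile normalized, and a probe set entered the tests where 3 or more arrays had it above their own median. In R 4.3.3, limma 3.58.1 fitted a mean for each of the 10 groups (lmFit, contrasts, eBayes with trend and robust), with Benjamini-Hochberg adjustment over the tested probe sets. The fit was tested on simulated data. The number of arrays limits the precision. A p-value sets a difference against the spread between mice within the groups. For comparisons of ages that spread does not cover the processing of the arrays. The members, the lists and the rule for named genes (per family the 2 largest called rises and falls in development and in aging, every gene called between genotypes, the 5 smallest p over the ages, untested genes, genes with opposed probe sets, and known partners) were chosen with earlier results of these data known. Genes named outside that rule were chosen after their values were seen. Among them are Plxna2, Sema4g and Sema5b in aging, Sema3e and Sema4c in development, and the genes named with the steps between adult ages.

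Tg and wt replicate numbers were compared as pairs. Correlations of deviations from the group means lay between -0.11 and 0.05. The labels do not say whether the numbers mark pairs, and such correlations cannot settle it. The main fit did not use the numbers as pairs. Alternatives were the deposited scale, an offset, other filters, other moderation, a replicate block, each array left out, other ways to pick a probe set, other ages, each genotype alone, and stricter thresholds. Promoter windows are from RefSeq's table.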

Additional observations from a re-analysis of the deposited data

Results flagged for a closer look

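In the wt mice of 10 days, the only group of more than 3 mice, 3 of the 66 guidance genes held an array whose distance from the others was large against the range of the group, where chance gives about 1 in 20 genes. Sema3f was 81.8 in wt replicate 2, against 365 to 385 in the other wt mice. Sema6a was 414 in wt replicate 4, against 551 to 574 in the others. Unc5d was 689 in wt replicate 1, against 596 to 604 in the others. No guidance gene had a genotype difference that changed across the 5 ages at an adjusted p under 0.05 (limma F-test of the interaction, 10 of 66 with an unadjusted p under 0.05, 8 of 12844 genes called), the smallest adjusted p being 0.132 for Ntn5.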

How the results depend on the processing

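Counts of guidance genes that rose or fell with age kept within 1.5 times under most alternatives. The exceptions follow. For 20 months against 4.5 months, the count that rose was 3 with each gene as the mean of its probe sets, 3 at a fold change of at least 1.3 with an adjusted p of at most 0.01, 1 in Tg mice alone, 3 in wt mice alone and 13 with 9 months in place of 4.5 months. The count that fell was 16 at the stricter threshold, 17 in Tg mice alone and 14 with 9 months in place of 4.5 months. For 9 months against 4.5 months, 10 rose when any probe set could call a gene, and 3 rose and 17 fell at the stricter threshold. For 14.5 months against 9 months, 5 fell with the mean of probe sets, and 12 rose and 4 fell at the stricter threshold. For 20 months against 14.5 months, 3 rose with the mean of probe sets, 12 with any probe set and 1 at the stricter threshold. Fewer genes pass a stricter threshold by construction, and the other causes were not tested.

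Between Tg and wt at 9 months, the count was 0 where the mean signal had to exceed the 60th percentile, which left Sema3d untested, and 0 with the arrays of that age alone. It was 2 without trend and robust moderation (Efna4 besides Sema3d), 3 with the mean of probe sets (Epha4 and Plxna4 besides), 4 with any probe set and 2 without the probe sets whose probes can match other transcripts (an alternative chosen after seeing the data, which adds Sema4a). At 20 months the count was 0 with an offset of 50, without trend and robust moderation, with the mean of probe sets, at the stricter threshold and with the arrays of that age alone. As a replicate block, the replicate numbers gave 2 genes at 9 months (Unc5d besides Sema3d) and 0 at 20 months, where Sema6c had an adjusted p of 0.086, and changed no other count by over 1.5 times.

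Leaving out each of the 31 arrays in turn gave 0 to 1 genes at 10 days, 1 to 2 at 9 months, 0 to 1 at 20 months and 0 to 1 in the F-test over ages. Ntn5 was called at 10 days and in the F-test without Tg replicate 3 of 10 days, and Sema6c in the F-test without wt replicate 1 of 9 months. The call of Sema6c at 20 months was lost without Tg replicate 2 or wt replicate 4 of 10 days, Tg replicate 2 or wt replicate 3 of 4.5 months, any wt array of 14.5 months, any Tg array of 20 months and wt replicates 1 and 2 of 20 months. Among age changes, 1 or more arrays ended the calls of Efnb2 (without wt replicate 1 of 4.5 months), Ntn3 and Sema7a in development and of Efnb1, Epha6, Ephb1, Ntn4 and Robo4 in aging. The other counts changed by at most 1.5 times.

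Directions changed with the adult age used. With 9 months in place of 4.5 months the development changes were -0.30 for Sema6b, -0.29 for Sema7a, -0.21 for Nrp2, -0.088 for Ntn3 and -0.18 for Efna3, and the aging changes were -0.048 for Sema3e, -0.11 for Sema4f, -0.28 for Plxnb3, 0.25 for Nrp2, 0.017 for Nrp1 and 0.18 for Robo4. Over the mean of the 4 adult ages development gave -0.058 for Sema6b and -0.019 for Sema7a. With the mean of its probe sets Sema4f changed by -0.22 in aging. Low signals limit Epha8, Ntn3, Efna4 and the 10-day levels of Ntn5 and Epha10, since the table holds no background for each probe set.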
